A study of Mus musculus with 12 samples.

Results

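The genes described here encode complement, coagulation and fibrinolysis proteins that the liver secretes into blood. They were chosen by name: 33 listed genes, each found on the array under its listed or older name, of 19340 genes that could be tested. The choice used no measured value of the treated and control mice, although the list was drawn up with earlier results of these data known. The 33 genes were covered by 46 probes, 10 genes had more than 1 probe, and the brightest probe of a gene was used. All 46 probes passed the filter on dim probes. Every gene was well above background on all 12 arrays except Cfd, which was not on the array of female dexamethasone 1.

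RNA came from livers of 12 C57BL/6 mice aged 11 weeks. All of them, controls included, had been adrenalectomized, so the main source of their own glucocorticoid was gone. The 4 groups of 3 mice were males given vehicle (phosphate buffered saline), males given dexamethasone, females given vehicle and females given dexamethasone, with females in diestrous 1. Dexamethasone, a synthetic glucocorticoid, was injected intraperitoneally at 1 mg/kg, 6 h before the liver was removed. Each array measured 500 ng of Cy3-labelled RNA from 1 mouse. A level below is the log2 processed signal minus the array's 75th percentile, so it can be compared between mice for 1 gene but not between genes. The probe intensity at that percentile ran from 578 to 1250, with 65.1 to 71.8% of an array's probes clearly brighter than background. A gene is said to have risen, fallen or differed where its limma p-value, adjusted over all genes by Benjamini-Hochberg, was under 0.05. The 12 arrays lay on 3 slides of several groups each. On each slide males sat at lower positions than females, and vehicle males always took position 1, so treatment and position cannot be told apart in males, nor sex and position within a slide. Positions 2 and 3 held arrays of both sexes on different slides. Hepatocyte markers fitted the liver label: Alb, Apoa1, Apob, Ttr, Ahsg and Tdo2 were all well above background on 12 arrays.

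Complement is a chain of plasma proteins, some of them proteases. The lectin pathway starts it on sugars, convertases built from C2, C3, C4b and Cfb drive it on, and the late components from C5 to C9 assemble a pore, the membrane attack complex. Coagulation is a parallel chain in which the contact, intrinsic and extrinsic arms converge on thrombin, which turns fibrinogen into fibrin. Hepatocytes make most of these proteins, and several are known acute phase proteins whose production cytokines and glucocorticoids can raise.

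The probes below are those of the 4 genes on which the treatment and sex comparisons mainly turn: Klkb1 and Fgb for dexamethasone, C6 and C9 for sex. Each is the designed 60-base oligo, in the coordinates of build mm7 that the array files give.
Klkb1: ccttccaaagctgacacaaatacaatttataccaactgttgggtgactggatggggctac
Fgb: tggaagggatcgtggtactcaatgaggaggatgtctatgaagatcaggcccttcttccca
C6: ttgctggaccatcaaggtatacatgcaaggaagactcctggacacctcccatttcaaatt
C9: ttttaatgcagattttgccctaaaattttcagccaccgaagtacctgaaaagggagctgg
The Klkb1 probe lay at chr8:44057884-44057943 on the minus strand. The Fgb probe lay at chr3:83147097-83147156 on the minus strand. C6 was measured at chr15:4626022-4626081 and C9 at chr15:6310121-6310180, both on the plus strand. An annotation of mm7 was not used here, so exon and UTR positions are not given. Several members are neighbours on this build. The 3 fibrinogen chains lay on chromosome 3, with 16.9 kb between the Fgg and Fga probes and 10.7 kb between Fga and Fgb. C8b and C8a lay 11.5 kb apart on chromosome 4, F11 and Klkb1 30.9 kb apart on chromosome 8, and F7 and F10 20.5 kb apart on chromosome 8.

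Promoters from RefSeq (build GRCm38.p6, 250 bases before to 50 after the gene start) matched 25 of the 33 genes. The palindrome TTCNNNGAA, the form bound by STAT factors, stood in 7 of the 25 (C8a, F9, Fga, Fgb, Masp2, Pros1 and Vtn), 28.0%, against 8.3% of 32851 promoters. The promoters of Fgb and C8a are shown because one rose and the other fell with dexamethasone. They are printed up to the gene start, with the match in capitals.
Fgb: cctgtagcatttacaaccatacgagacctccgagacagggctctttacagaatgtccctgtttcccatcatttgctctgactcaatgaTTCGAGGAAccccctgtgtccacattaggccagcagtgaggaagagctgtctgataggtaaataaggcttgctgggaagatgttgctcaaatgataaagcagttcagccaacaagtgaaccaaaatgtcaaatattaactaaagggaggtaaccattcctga
C8a: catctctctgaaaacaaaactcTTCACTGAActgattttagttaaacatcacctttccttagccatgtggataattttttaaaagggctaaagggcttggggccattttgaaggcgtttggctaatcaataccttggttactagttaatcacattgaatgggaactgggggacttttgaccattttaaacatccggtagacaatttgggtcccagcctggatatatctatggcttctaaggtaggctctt
These are chr3:83049864-83050113 and chr4:104876399-104876648, both on the minus strand. The match starts 162 bases before the Fgb start and 228 bases before the C8a start. The glucocorticoid receptor palindrome GNACANNNTGTNC was in none of the 25 promoters and in 0.475% of all promoters, 156 of them. The single arm of that palindrome, AGAACA or TGTTCT on either strand, was in 9 of the 25 (C9, F10, F12, F13b, F2, Fgg, Mbl1, Mbl2 and Vtn) and in 19.0% of all promoters. Such matches describe the letters in this window and show no binding.

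Dexamethasone changed few of these genes at 6 h. In males 1 rose (Fgb) and 2 fell (Klkb1 and F7), 9.09% of the members, while 22.5% of all genes tested were called, 10.4% higher and 12.1% lower. In females 1 fell (C8a) and none rose, 3.03% of the members, while 13.7% of all genes were called, 6.79% higher and 6.88% lower. The median log2 difference was -0.00 over the members in males, against 0.01 over all genes, and -0.06 in females, against 0.02. The median size of the difference, sign ignored, was 0.25 over the members and 0.32 over all genes in males, and 0.16 and 0.27 in females. The spread between mice of a group was no wider for the members than elsewhere: the median residual SD was 0.17 over the members and 0.26 over all genes.

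**Figure D1:**
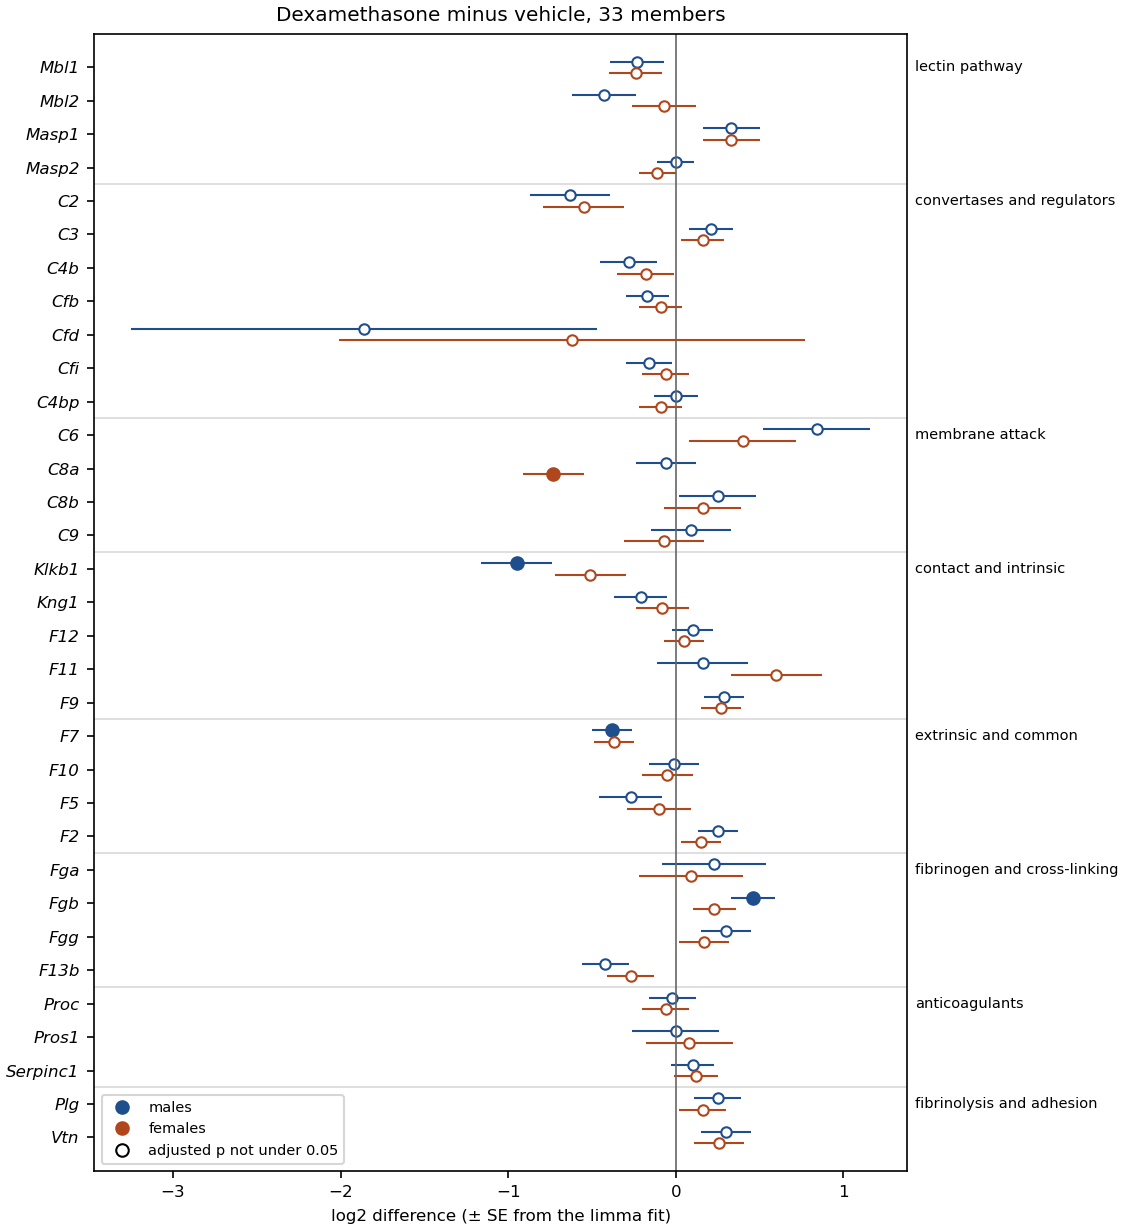
Log2 difference of dexamethasone minus vehicle for each of the 33 genes, by role, in males (blue) and females (orange), with the standard error of the limma fit from 3 mice a group; filled points have an adjusted p under 0.05. Most points lie within 0.5 of 0, and the filled points are Klkb1, F7 and Fgb in males and C8a in females.

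Klkb1 encodes plasma prekallikrein, the contact-phase protease precursor that releases bradykinin from kininogen. Its level was 3.21, 3.02 and 3.36 in the male vehicle mice and 2.59, 2.02 and 2.12 in the male dexamethasone mice. The male groups did not overlap. The difference was -0.95 ± 0.21 (SE, n = 3 and 3), 1.94-fold lower, with a limma adjusted p of 0.00839. In females the level was 3.23, 3.26 and 2.77 under vehicle and 2.32, 2.55 and 2.87 under dexamethasone, so the groups overlapped. The female difference was -0.51 ± 0.21 (limma adjusted p = 0.134). The interaction of treatment and sex did not pass the test. Within slides the male difference was -1.19 on slide 1 and -0.67 on slide 3. F11, the neighbour of Klkb1 and a related protease of the intrinsic arm, differed by 0.16 ± 0.27 in males (limma adjusted p = 0.724) and 0.60 ± 0.27 in females (0.173).

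F7 encodes factor VII, the protease that tissue factor activates to start the extrinsic arm. Its level was 3.93, 3.75 and 3.88 in male vehicle mice and 3.49, 3.53 and 3.40 in male dexamethasone mice. In females it was 4.39, 4.51 and 4.19 under vehicle and 4.02, 4.07 and 3.87 under dexamethasone. In either sex every treated mouse was below every vehicle mouse, and under either treatment every female was above every male. The treatment differences were near equal in size, -0.38 ± 0.12 in males (limma adjusted p = 0.0467) and -0.37 ± 0.12 in females (0.0669), with the first under and the second over the threshold. Leaving out any 1 of 9 of the 12 arrays, male vehicle 1 among them (adjusted p = 0.154), took the male value past the threshold. Slide as a block (-0.34, 0.096) and normexp correction (-0.60, 0.241) did so too. The male call held in 3 of 7 processing alternatives. F10, the next gene and the factor that F7 activates, differed by -0.01 and -0.05.

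Fgb encodes the beta chain of fibrinogen. It was 9.14, 9.22 and 9.06 in male vehicle mice and 9.41, 9.70 and 9.68 in male dexamethasone mice, with no overlap. The rise was 0.46 ± 0.13, 1.37-fold (limma adjusted p = 0.0299). Females were 9.18, 8.82 and 9.0 under vehicle and 9.25, 9.26 and 9.15 under dexamethasone, and overlapped, with a difference of 0.23 ± 0.13 (0.292). The gamma chain Fgg differed by 0.30 ± 0.15 in males (0.179) and 0.17 in females. The alpha chain Fga differed by 0.23 ± 0.31 in males, where the mouse male dexamethasone 3 stood at 8.12 and the other treated males at 6.79 and 6.91. The rise of Fgb rests on how arrays are scaled: it was 0.07 (adjusted p = 0.711) after quantile normalization and 0.21 (0.607) after normexp background correction. It was also lost with slide as a block (0.47, 0.072), and without any 1 of the male vehicle mice or of male dexamethasone 2 and 3. In all, the Fgb call in males held in 3 of 7 processing alternatives. Hepatocyte markers were read beside it, under percentile scaling only. The 75th percentile intensity was 821, 836 and 883 on the male vehicle arrays and 788, 578 and 672 on the male dexamethasone arrays. Of 7 listed and 6 tested, 4 rose in males (Alb, Apoa1, Ahsg and Tdo2), 66.7% beside 10.4% of all genes higher. Apob differed by 0.17 (limma adjusted p = 0.428) and Ttr by -0.39 (0.178). In females Apoa1 and Tdo2 rose. The summed linear level of the 6 tested was 1260 to 1290 in male vehicle and 1680 to 1890 in male dexamethasone mice. In females the sum was 1170 to 1280 under vehicle and 1410 to 1540 under dexamethasone. The part of hepatocytes in the Fgb difference was not tested, nor was the part of array scaling in the marker differences. A bulk sample cannot tell more cells of a type from more RNA per cell.

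**Figure D2:**
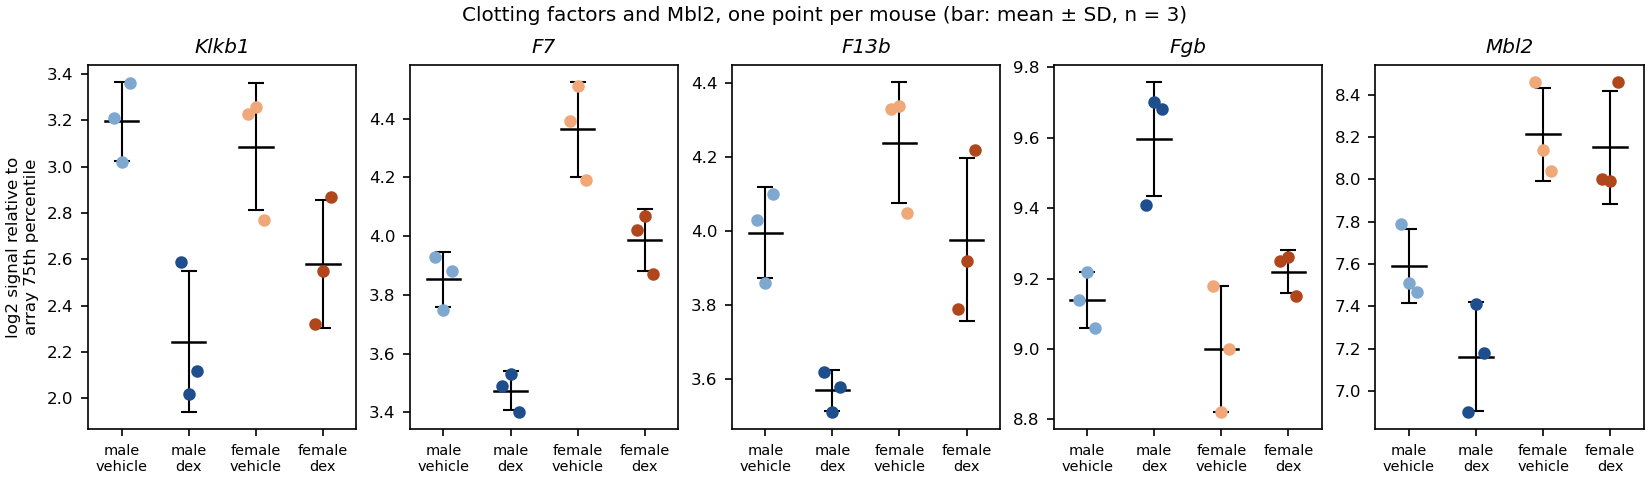
Level of Klkb1, F7, F13b, Fgb and Mbl2 in each mouse (points), on the log2 scale relative to the array's 75th percentile, with mean ± SD of 3 mice for the 4 groups; each panel has its own axis. Treated males lie below vehicle males for Klkb1, F7 and F13b and above them for Fgb, and females lie above males for Mbl2 under either treatment.

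C8a, which encodes the alpha chain of complement C8, is the only member that fell in females. It was 4.69, 5.0 and 4.72 in female vehicle mice and 3.83, 4.52 and 3.87 in female dexamethasone mice, with no overlap. The difference was -0.73 ± 0.18, 1.66-fold lower (limma adjusted p = 0.0249). Males were 6.30, 6.26 and 6.17 under vehicle and 6.08, 6.32 and 6.16 under dexamethasone, a difference of -0.06 ± 0.18 (0.865). The difference between the sexes in this response, -0.67, did not pass the test over all genes. Its p-value from the limma fit was 0.025 before adjustment. The call in females was lost without any 1 of the 3 vehicle females or of female dexamethasone 1 and 3. Within slides the female difference was -0.48 and -0.84. C8b, the gene beside it, which encodes the chain that binds C8a in the complex, differed by 0.16 ± 0.23 in females.

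None of the 33 genes passed the test of whether the treatment effect differed between the sexes, against 0.00517% of all genes, which is 1 gene. The fit was limma, and 1 member, C8a, had an unadjusted p under 0.05. The members' median of this difference was -0.02, against 0.01 over all genes.

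The remaining genes did not pass the test in either sex. F13b, the carrier chain of the fibrin cross-linking factor XIII, was 3.99 ± 0.12 (SD, n = 3) in male vehicle and 3.57 ± 0.05 in male dexamethasone mice, a difference of -0.42 ± 0.14 (limma adjusted p = 0.0557). C2, the protease of the classical and lectin convertase, differed by -0.63 ± 0.24 in males (0.0904) and -0.55 ± 0.24 in females (0.168). C6 differed by 0.84 ± 0.32 in males (0.0839). Of the lectin pathway, Mbl1 differed by -0.23 and -0.24 in males and females, and the protease Masp1 by 0.33 in both. Of the convertase genes and their regulators, C4b differed by -0.28 and -0.18, Cfb by -0.17 and -0.09, Cfi by -0.16 and -0.06, and C4bp by -0.00 and -0.09. Of the clotting factors, F9 differed by 0.29 and 0.27, F12 by 0.10 and 0.05, F5 by -0.27 and -0.10, and the kininogen Kng1 by -0.21 and -0.08. By the probes used, the anticoagulants stood close to 0. Protein C (Proc) differed by -0.02 and -0.06, protein S (Pros1) by 0.00 and 0.08, and antithrombin (Serpinc1) by 0.10 and 0.12. Prothrombin (F2) differed by 0.25 and 0.15, plasminogen (Plg) by 0.25 and 0.16, and vitronectin (Vtn), a plasma adhesion protein, by 0.30 and 0.26. The central component C3 differed by 0.21 and 0.16, with its probe saturated on the array of female vehicle 2.

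Probes of a gene did not always give the same value. A second Masp1 probe of the same RefSeq transcript rose by 0.68 in males (limma adjusted p = 0.0141 in a fit over probes) and 0.60 in females (0.0362), where the probe used gave 0.33 in both, and another Masp1 probe gave -0.17 and -0.22. A second C3 probe gave -0.52 in males, opposite in sign to the probe used. A second Kng1 probe gave -0.65 (0.0601) against -0.21. A second Serpinc1 probe gave -0.33 (0.101) in males and -0.14 in females, opposite in sign to the probe used. A Masp2 probe of another transcript gave -0.38 (0.0635) and -0.39 (0.0559), against -0.00 and -0.11.

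The counts in males also depended on scaling. Under quantile normalization the members' median was -0.18, none rose and 9 fell (C2, C4b, Cfb, Cfi, F13b, F7, Klkb1, Kng1 and Mbl2), which is 27.3% of the members, against 12.9% of all genes lower under that scaling. All 33 differences in males were lower than under percentile scaling, with a median shift of -0.22. In females 1 member fell under either scaling, against 7.45% of all genes lower under quantile normalization, and 32 of 33 differences were lower. Klkb1 and F7 fell in males under both scalings. Normexp correction, in which the median of all genes itself stood at 0.26 in males and 0.24 in females, left 1 member called in males and none in females, with 4.69 and 2.77% of all genes called.

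**Figure D3:**
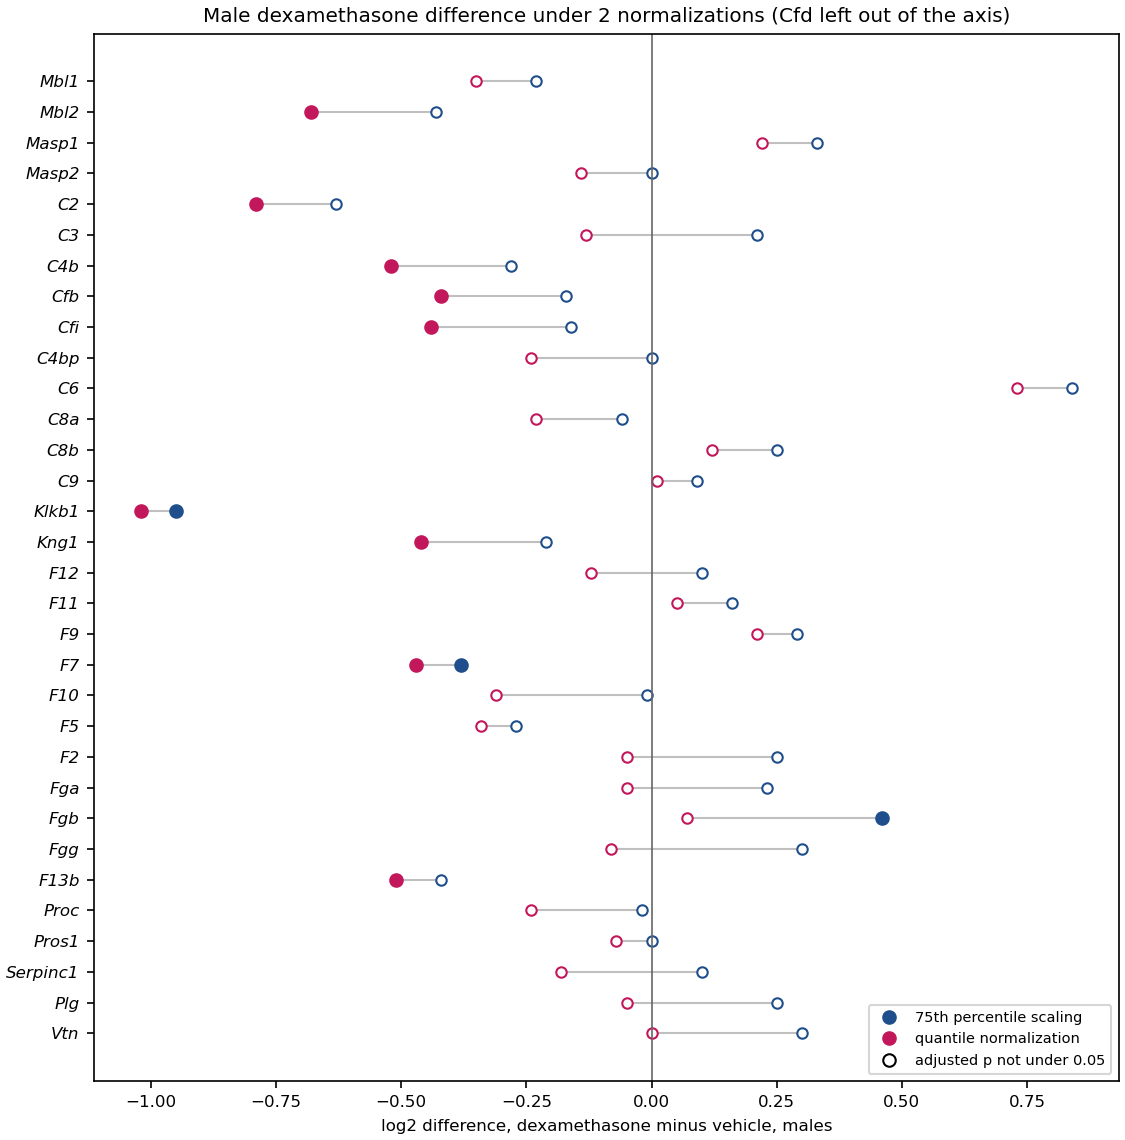
Log2 difference of dexamethasone minus vehicle in males for each gene but Cfd, under 75th percentile scaling (blue) and quantile normalization (pink), 3 mice a group; filled points have an adjusted p under 0.05. The pink point lies left of the blue one for every gene, and 9 pink points against 3 blue ones are filled.

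Between the sexes it was the membrane attack genes and Cfd that differed most. Under vehicle, 4 members were lower in females (Cfd, C6, C8a and C9) and none was higher, 12.1% of the members, against 1.97% of all genes, 0.657% higher and 1.31% lower. Under dexamethasone 5 were lower in females (the same 4 and C8b) and 2 were higher (Mbl2 and F7), 21.2% of the members, against 5.81% of all genes, 3.27% higher and 2.53% lower. All 4 listed membrane attack genes were lower in females in every one of the vehicle and dexamethasone comparisons of means. The members' median difference was -0.11 under vehicle, against -0.05 over all genes, and -0.13 under dexamethasone, against -0.05.

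**Figure D4:**
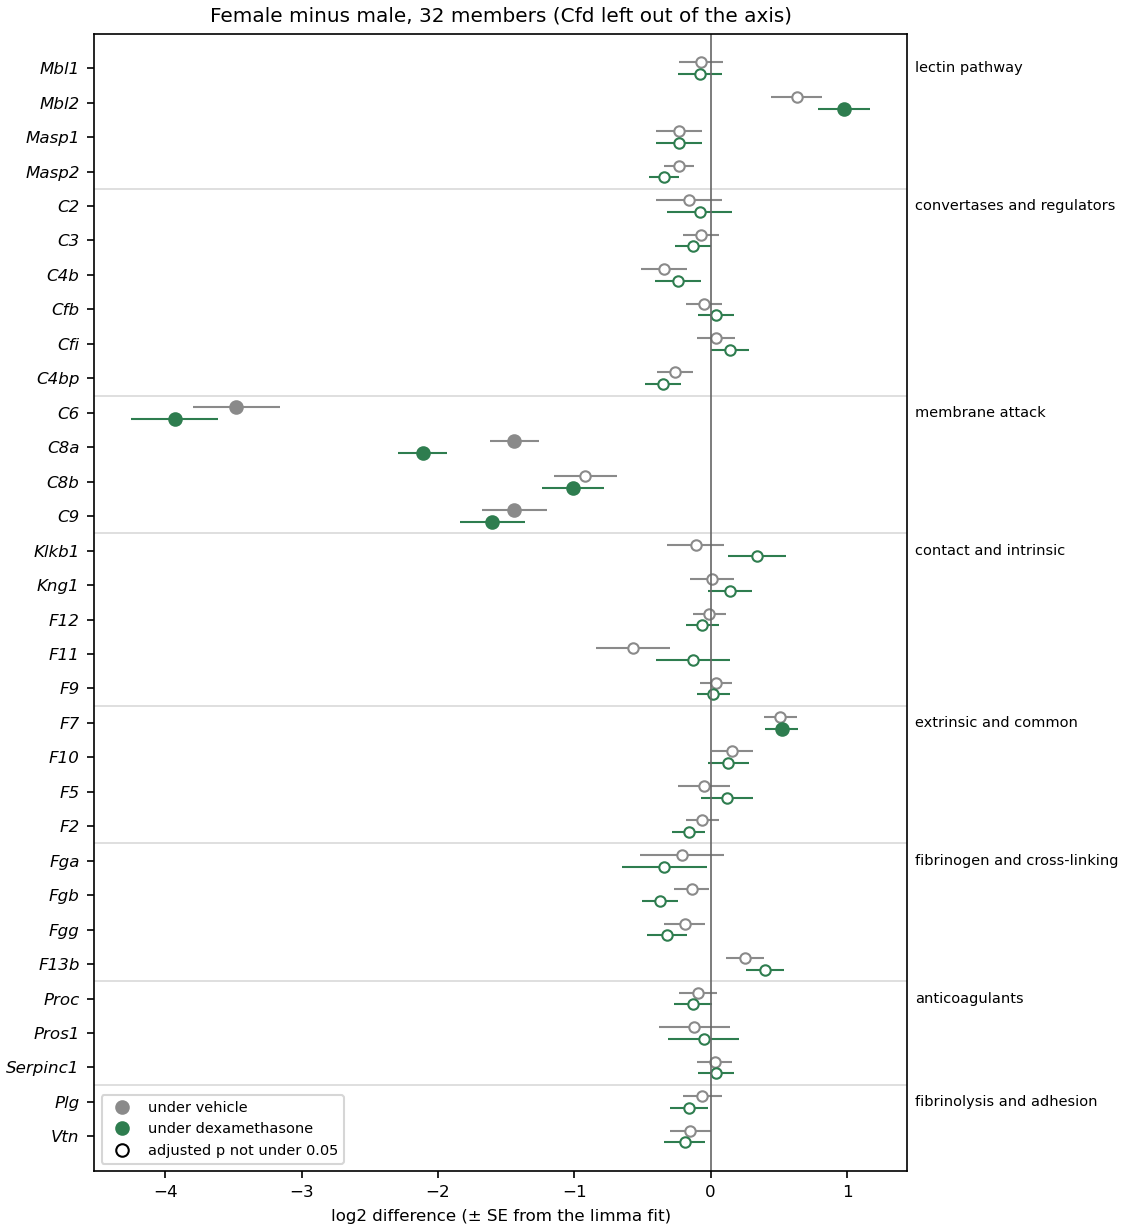
Log2 difference of females minus males for 32 genes, by role, under vehicle (grey) and dexamethasone (green), with the standard error of the limma fit from 3 mice a group; filled points have an adjusted p under 0.05. The membrane attack genes C6, C8a, C8b and C9 lie between -3.93 and -0.92, and the other genes drawn lie between -0.57 and 0.98.

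C6, the component that binds C5b and begins the pore, showed the largest difference of the 4. Vehicle males were at 2.46, 3.53 and 3.62 and vehicle females at -0.11, 0.09 and -0.83. Treated males were at 4.27, 3.73 and 4.13 and treated females at 0.08, 0.27 and 0.01. Every female lay far below every male. The difference was -3.48 ± 0.32 under vehicle, 11.2-fold lower (limma adjusted p = 0.000282), and -3.93 ± 0.32 under dexamethasone, 15.2-fold lower (0.000126). Counted from the most male-biased of 19340 genes, C6 ranked 21 under vehicle and 27 under dexamethasone. Within slides the vehicle difference was -2.37, -3.72 and -4.36, and the treated difference on slide 1 was -3.46. Between arrays at position 2, C6 was -0.11 in female vehicle 1 against 4.27 and 3.73 in male dexamethasone 1 and 2. These arrays also differ in treatment and slide.

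C8a, whose levels stand above, was lower in females under either treatment, with differences of -1.44 ± 0.18 (limma adjusted p = 0.00214) and -2.11 ± 0.18 (0.000177). These are 2.71-fold and 4.32-fold, and in neither condition did the sexes overlap. The vehicle call was lost under normexp correction (-1.40, 0.111). The slides gave -1.29, -1.48 and -1.54 under vehicle and -1.80 under dexamethasone. C8b averaged 5.02 ± 0.16 (SD, n = 3) in vehicle males, 5.27 ± 0.34 in treated males, 4.09 ± 0.40 in vehicle females and 4.26 ± 0.19 in treated females. Its difference was -0.92 ± 0.23 under vehicle (0.0744) and -1.01 ± 0.23 under dexamethasone (0.0289). The second passed the threshold and the first did not. The call under dexamethasone was lost without any 1 of male dexamethasone 1 and 2 or female dexamethasone 1 and 3, with quantile normalization (-0.88, 0.0506), with normexp correction (-0.95, 0.441) and with slide as a block (-1.08, 0.0699).

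C9, the subunit that polymerizes into the wall of the pore, was 2.85, 3.04 and 2.89 in vehicle males and 1.5, 1.64 and 1.34 in vehicle females. It was 3.35, 2.87 and 2.84 in treated males and 0.85, 1.93 and 1.48 in treated females. The sexes did not overlap under either treatment. The difference was -1.44 ± 0.24 under vehicle (limma adjusted p = 0.0135) and -1.60 ± 0.24 under dexamethasone (0.00531), 2.71-fold and 3.03-fold lower. The vehicle call was lost without male vehicle 2, male vehicle 3 or female vehicle 3, and the treated call with slide as a block (-1.44, 0.0649). The other late components did not pass the test. Hc, which encodes C5, differed by -0.28 under vehicle (0.373) and -0.49 under dexamethasone (0.0534), and C8g, the gamma chain of C8, by 0.07 and -0.14. C7, next in the complex after C6, differed by -0.83 ± 0.63 and -0.86 ± 0.63 and was well above background on 9 arrays.

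**Figure D5:**
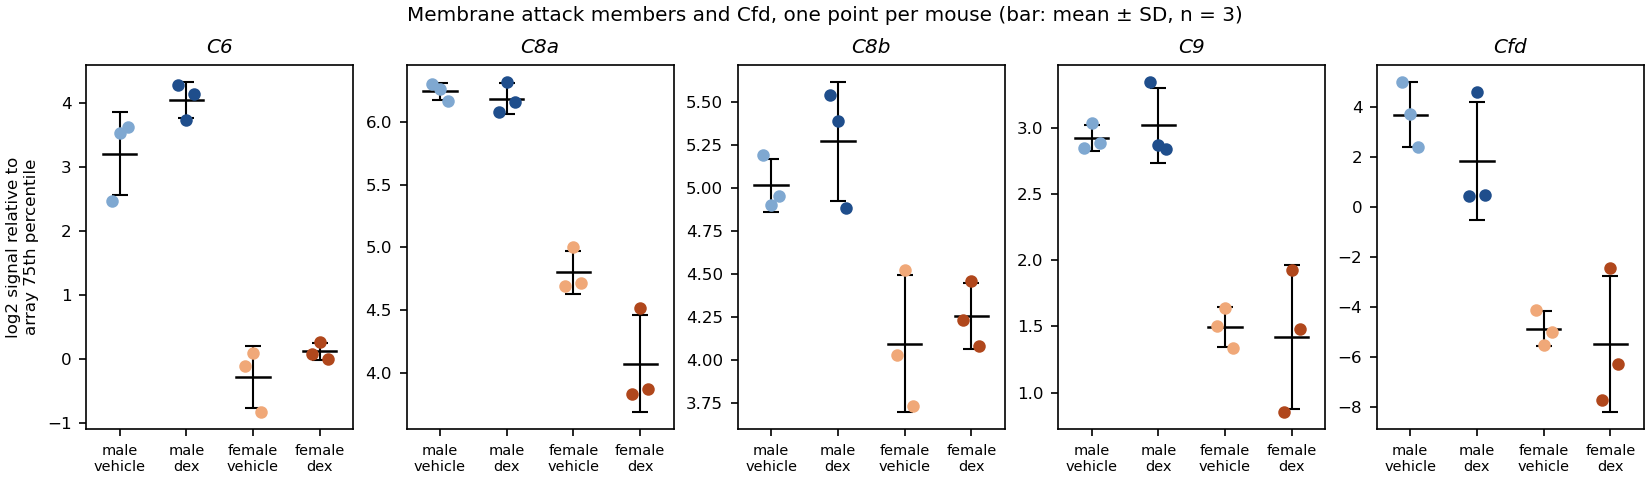
Level of C6, C8a, C8b, C9 and Cfd in each mouse (points), on the log2 scale relative to the array's 75th percentile, with mean ± SD of 3 mice for the 4 groups; each panel has its own axis. In every panel all 6 females lie below all 6 males, and C8a alone shows lower treated than vehicle females with no overlap.

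Cfd encodes factor D, or adipsin, the protease that activates factor B in the alternative pathway and is known as a product of fat cells. Its level was 5.0, 3.70 and 2.38 in vehicle males and -4.12, -5.51 and -5.01 in vehicle females. It was 0.45, 4.58 and 0.48 in treated males and -7.73, -2.46 and -6.30 in treated females. Every female was below every male, but mice of a group differed from each other more than for any other member, with a residual SD of 1.95 against 0.43 at most for the others. The difference was -8.58 ± 1.39 under vehicle, 382-fold lower (limma adjusted p = 0.0101), and -7.33 ± 1.39 under dexamethasone (0.0142). The probe was well above background on 2 of 3 treated female arrays, so the size of the treated difference rests in part on a dim value. It ran from -8.85 to -5.96 with 1 array left out in turn, the first without female dexamethasone 2 and the second without male dexamethasone 2. Cfd ranked 4 of 19340 from the most male-biased end in both. The vehicle call was lost without male vehicle 2 (0.0502), and the treated call without female dexamethasone 1 (0.0551) and under normexp correction (-4.17, 0.257). The treatment differences, -1.86 in males and -0.62 in females, did not pass the test.

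Fat cell markers were read beside Cfd. Of 6 listed, Lep was well above background on no array and Adipoq on 4, of which 2 were male vehicle and 2 female dexamethasone arrays. Retn was well above background on 4 arrays and Plin1 on 6. Plin1 differed by -0.17 between the sexes under vehicle and 0.32 under dexamethasone, with neither past the threshold. Fabp4 differed by 0.27 and -0.21. Car3, which liver also expresses, differed by -0.92 (limma adjusted p = 0.0601) under vehicle and -1.33 (0.00688) under dexamethasone. The summed linear level of the 3 tested markers, Plin1, Fabp4 and Car3, was 191 to 227 in male vehicle and 205 to 307 in male dexamethasone mice. In females it was 88 to 144 under vehicle and 96.5 to 115 under dexamethasone. This sum is nearly all Car3, whose mean log2 level in male vehicle mice was 7.66, against 2.58 for Fabp4 and -6.64 for Plin1. The part of fat cells in the Cfd difference was not tested.

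The 2 members higher in females under dexamethasone were F7 and Mbl2. F7 was 0.52 ± 0.12 higher (limma adjusted p = 0.0353), and 0.51 ± 0.12 higher under vehicle (0.0666). The first call held in 4 of 7 processing alternatives, with an adjusted p of up to 0.694, and in 4 of the 12 fits that left out 1 array. Mbl2, a mannose-binding lectin that starts the lectin pathway, averaged 7.59 ± 0.17 (SD, n = 3) in vehicle males, 7.16 ± 0.26 in treated males, 8.21 ± 0.22 in vehicle females and 8.15 ± 0.27 in treated females. The female excess was 0.98 ± 0.19 under dexamethasone, 1.98-fold (0.0148), and 0.63 ± 0.19 under vehicle (0.148). It was lost under dexamethasone without male dexamethasone 1 (0.0544), with normexp correction (0.92, 0.233) and with slide as a block (0.79, 0.15). Mbl1, the other mannose-binding lectin, differed by -0.07 and -0.08. Masp2, a protease of the same pathway, did not pass, with a difference of -0.34 ± 0.11 under dexamethasone (0.0928). The fibrinogen chains Fga, Fgb and Fgg had differences of -0.34, -0.37 and -0.32 there, and none passed. The second probes of C3 and Serpinc1 gave 0.96 (0.0178) and 0.48 (0.033) under dexamethasone in the fit over probes, where the probes used gave -0.13 and 0.04.

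Of 68 other genes of these pathways and of their control, 61 were tested. C1s was not found under that name, and Fcnb, Cd46, C5ar1, Adamts13, F2rl1 and F2rl2 did not pass the filter on dim probes. In males 8 rose and 8 fell, 26.2% of those tested beside the 22.5% of all genes called. In females 4 rose and 1 fell, 8.2% beside 13.7%. By sex none differed under vehicle, beside 1.97% of all genes. Under dexamethasone 1 was higher (Procr) and 1 lower (A2m) in females, 3.28% beside 5.81% of all genes. None of the 7 tested recognition genes, among them the C1q chains C1qa, C1qb and C1qc, changed with treatment in either sex.

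Serpina5, the protein C inhibitor, rose most of the pathway genes named here. It was -6.87, -5.92 and -5.26 in vehicle males and 0.93, 0.93 and -0.56 in treated males, a rise of 6.45 ± 0.50 (limma adjusted p = 7.99e-05). The probe was well above background on 2 of 3 male vehicle arrays, so the size of the male rise rests in part on dim values. In females Serpina5 was not well above background under vehicle and was -0.06, -0.54 and 0.24 under dexamethasone. Under the main processing it was at least 80.7-fold higher (5.05e-05). The bound sets the treated mean against the dimmest signal that counted as well above background on each vehicle array, or the probe's own where that was higher. Across the 6 processing alternatives that held the gene, the log2 rise was as low as 4.00 in males and 3.94 in females. Both calls were kept in all 6. A2m, the protease trap alpha-2-macroglobulin, rose in males from -6.51, -5.79 and -7.65 to -2.26, -1.98 and 0.54, by 5.42 ± 0.76 (0.00112). It was well above background on 1 of 3 male vehicle arrays, so the size of this rise rests on dim values, and under normexp correction it was 2.90. In treated females it was -5.59, -5.92 and -6.63, below every treated male, and the difference between the sexes under dexamethasone was -4.81 ± 0.76 (0.00649), but not called under normexp correction (-2.04, 0.447) or with slide as a block (-4.27). Its female treatment difference did not pass the test (0.22), nor did the interaction. C7 rose in both sexes, by 2.85 ± 0.63 (0.00943) in males and 2.82 ± 0.63 (0.0156) in females. It was well above background on 2 of 3 male and 1 of 3 female vehicle arrays, so these sizes rest on dim values. Under normexp correction they were 1.51 (0.17) and 1.27 (0.295). The female call was also lost without female vehicle 1 (0.0551) or female vehicle 3.

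Of the genes that passed the test, those with a difference of -1 or beyond in males were F3, Procr, Tfpi, Cd55 and Itgam. F3, which encodes tissue factor, the cofactor of F7, went from -0.47, -0.49 and -0.43 to -1.51, -1.87 and -1.72, a difference of -1.24 ± 0.27 (limma adjusted p = 0.00873), against -0.66 ± 0.27 (0.137) in females. Under normexp correction the male value was -0.81 (0.0744). Procr, the endothelial receptor of protein C, fell in both sexes, with differences of -1.22 ± 0.18 (0.00141) and -0.62 ± 0.18 (0.045), and was 0.93 ± 0.18 higher in females under dexamethasone (0.0156). Its male call was lost under normexp correction (-0.63, 0.292). The female call held in 3 of 7 processing alternatives, with an adjusted p of up to 0.438, and in 2 of the 12 fits that left out 1 array. The sex difference was lost under normexp correction (0.47, 0.998) and with slide as a block (0.95, 0.111), and without male dexamethasone 1 (0.0503). Tfpi, the inhibitor of tissue factor, differed by -1.01 ± 0.31 (0.0388) and -0.78 ± 0.31 (0.124). The male call held in 3 of 7 processing alternatives, with a value of -0.52 (0.406) under normexp correction, and in 6 of the 12 fits that left out 1 array. Cd55, a convertase inhibitor on cell surfaces, differed by -1.26 ± 0.30 in males (0.0131), and by -0.42 (0.505) under normexp correction. The Cd55 call was also lost without male vehicle 1 (0.057) or male dexamethasone 2. Itgam, a chain of complement receptor 3, differed by -1.57 ± 0.33 in males (0.00789), where it was well above background on 1 of 3 treated arrays, and by 0.64 under normexp correction. Markers of endothelial and stellate cells were read beside these genes. Of 6 endothelial markers Kdr and Tek fell in males, by 1.22 and 0.87 on the log2 scale, and Lyve1 rose by 1.89. Stab2, Pecam1 and Cdh5 did not pass, so 50% were called, beside 22.5% of all genes. The summed linear level of the 6 was 7.91 to 10.5 in male vehicle, 10.6 to 14.3 in male dexamethasone, 9.12 to 12.7 in female vehicle and 11.4 to 25.7 in female dexamethasone mice. Lyve1 was the only marker in this sum that rose. Of 6 stellate and fibroblast markers Lrat, Col1a1 and Col3a1 fell in males, by 1.25, 1.08 and 1.40, 50% beside 12.1% of all genes lower. Des, Dcn and Pdgfrb did not pass. The stellate and fibroblast sums were 36.9 to 42.9, 32.4 to 33.5, 40.3 to 46.6 and 46.2 to 52.1 in the same order of groups. In females 1 endothelial marker rose, and no other endothelial or stellate marker passed the test. Macrophage markers were read beside Itgam. Of 7, 1 fell in males (Adgre1), 14.3% beside 12.1% of all genes lower, and none in females. The summed linear level of the 7 was 54.9 to 90.6 in male vehicle and 37.5 to 50.8 in male dexamethasone mice. In females the sum was 86.3 to 132 under vehicle and 56.8 to 110 under dexamethasone. The part of these cell types in the differences was not tested.

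The other listed genes include transcription regulators. Hnf4a, a nuclear receptor that drives many hepatocyte genes, rose by 0.87 ± 0.13 in males (limma adjusted p = 0.0017) and 1.02 ± 0.13 in females (0.0014), with both calls lost under normexp correction (0.154 and 0.111). Cebpb, an acute phase transcription factor, rose by 1.02 ± 0.24 in males (0.0123), against 0.68 ± 0.24 in females (0.0838), and the male call was lost under normexp correction (0.79, 0.0843). The glucocorticoid receptor gene Nr3c1 differed by -0.25 and -0.11 and Stat3 by -0.08 and -0.31, none of them past the threshold.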

How the data were processed

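Liver RNA of 12 mice was measured on 1-colour Agilent mouse arrays, 1 mouse per array. The deposited scanner files hold intensities that the authors quantified with Agilent Feature Extraction 9.5, per the submitters' processing notes, and the column used was the processed signal, already corrected for background per the file headers. The deposited series values are the same intensity, with a largest difference of 0. Control spots and outlier-flagged spots were removed, spots of a probe averaged, and log2 taken and the 75th percentile of each array subtracted. Of 41174 probes, 57 with outlier spots only on some array were left out. Kept probes were those that, in 1 group or more, stood well above background on each of its 3 arrays, and the brightest probe stood for a gene. Symbols came from accessions for 22951 probes, symbols for 6659, synonyms for 3109 and the files' own names for 8455.

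A limma fit (3.58.1, R 4.3.3) with 4 group means over all 12 arrays (8 residual degrees of freedom) gave 5 comparisons, with p-values adjusted by Benjamini-Hochberg over 19340 genes. On simulated data with 200 changed genes it was tested for the changes put in. An exact permutation test of 3 mice against 3 cannot go below p = 0.1, so single genes were tested only in this fit. Alternatives were normexp background (offset 50), quantile normalization, no filter, a filter on all 12 arrays, the mean of a gene's probes, slide and replicate number as blocks, and each array left out in turn.

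Members, lists and tests were chosen with earlier results of these data known. Members are given mouse by mouse where called in the treatment comparisons or in both sex differences, and by group means where called in 1 sex difference only or uncalled but near the threshold. Other pathway genes are named where called after dexamethasone with a log2 difference of at least 1, and Nr3c1, Stat3, Hc and C8g were named after their values were seen. The values of 1 listed gene are not reported here.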

Additional observations from a re-analysis of the deposited data

How the results depend on the processing

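The counts of members called moved under some alternatives. In males the 3 called members became 1 under normexp background, 9 under quantile normalization, 1 with slide as a block and 1 with the replicate block, and 1 to 4 with each array left out. In females the 1 called member became 0 under normexp background and 0 to 1 with each array left out. Females against males, the 4 called under vehicle became 2 to 5 with each array left out, and the 7 under dexamethasone became 3 under normexp background, 3 with slide as a block and 4 to 7 with each array left out. The other pathway genes called in males went from 16 to 2 under normexp background and to 11 to 18 with each array left out, and in females from 5 to 1 under normexp background, 9 under quantile normalization and 3 to 6 with each array left out. Itgam in males turned to 0.64 under normexp background. The share of all genes called moved too: in males from 22.5% to 4.69% under normexp background, 23.2% under quantile normalization and 16.5% with slide as a block, and by sex under dexamethasone from 5.81% to 0.305% under normexp background and 1.26% with slide as a block. The cause of these moves was not tested. Direction and call were kept under every alternative and with every array left out for 3 members. These were Klkb1 in its male fall, C6 in both sex differences and C8a in the sex difference under dexamethasone. Of 31 called values of named genes, 9 kept direction and call under all processing alternatives that held the gene. With each array left out 17 did so, and 7 did so under all of these fits. Among all genes called by sex, the share higher in females was 33.3% under vehicle and 56.4% under dexamethasone, and became 50% and 44.1% under normexp background and 26.6% and 35.7% with slide as a block. The labels give replicate numbers but do not say whether these pair the mice. Same-numbered arrays of different groups had residual correlations of -0.216 to 0.326 over 18 pairs. Arrays of different number and group had -0.404 to 0.356 over 36 pairs. These ranges overlap and cannot show whether mice were paired. Dim signal limits Cfd in females and C7, Itgam, Serpina5 and A2m in some groups. Under the filter on all 12 arrays none of these genes has a value, so each was held by 6 of the 7 processing alternatives.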
